A study of Homo sapiens with 66 samples.

Results

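The loss of NXF1 was set against the loss of GANP in human DLD-1 colorectal cancer cells to find RNAs that depended on one of these mRNA export factors more than on the other. The comparison used 12 of the 66 RNA-sequencing libraries, 3 in each of 4 groups, all counted alike. The first line carried AID-FLAG-NXF1 and was untreated or given 1 mM auxin for 2 h. The second line carried AID-HA-GANP1 and was untreated or given 1 mM auxin for 3 h. In each line both endogenous alleles carried an auxin-inducible degron, and TIR1, the ubiquitin ligase adaptor that auxin recruits to the degron, was expressed from the RCC1 locus, so the untreated libraries held the tag and TIR1 as well. The line, its tag, its clone and the hours in auxin changed together with the factor, and their parts in a difference cannot be told apart. Values from AID-NeonGreen-TPR cells (AID-TPR) and from DLD-1 cells without a degron are set beside these, untreated or in 1 mM auxin for 2 h. AID-TPR cells in actinomycin D for 2 h are given as well.

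NXF1, with its partner NXT1, is the export receptor that carries most mRNAs through the nuclear pore. GANP, the product of MCM3AP, is the scaffold of TREX-2, an mRNA export complex on the nuclear side of the pore that also holds the subunits PCID2, ENY2, SEM1 and centrins. The study proposes that NXF1 binds the transcripts dependent on TPR and GANP early in their processing and that GANP joins them afterwards. The nucleoporin TPR anchors TREX-2 at the nuclear basket. Total RNA was measured after depletion of rRNA, so a fall or a rise refers to the RNA of whole cells, and RNA retained in the nucleus was counted with the rest. In bulk libraries, fewer cells with an RNA and less of that RNA per cell cannot be told apart.

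The libraries held 26858492 to 47492200 counts in genes, and those of AID-HA-GANP1 cells in auxin were the deepest, with at least 39292870. Pairs of libraries of 1 group differed beyond counting noise, with a chi-square per degree of freedom of at least 4.07 over 12 pairs. The summed level of the 8 epithelial and colon markers was 7093 to 13550 CPM (counts scaled to library size, TMM), and that of the fibroblast markers was at most 1.75 CPM, of the leukocyte markers at most 6.83 CPM and of the endothelial markers at most 3.90 CPM. The degron acts on protein. NXF1 RNA was at 119, 127 and 119 CPM in untreated AID-FLAG-NXF1 cells and at 125, 145 and 137 CPM in auxin, a log2 change of 0.15 (SE 0.08). MCM3AP RNA was at 125, 134 and 131 CPM in untreated AID-HA-GANP1 cells and at 148, 168 and 164 CPM in auxin, a log2 change of 0.30 (SE 0.06). These RNAs do not check the loss of the proteins. NXF1 RNA of untreated cells was higher in the AID-FLAG-NXF1 line than in the AID-HA-GANP1 line, by 1.21 on the log2 scale.

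Both losses lowered more genes than they raised, and the change after GANP loss was the wider. Of 17812 genes tested, 1034 were lower and 366 higher after NXF1 loss (5.81% and 2.05%, 7.86% in all), and 1913 were lower and 1011 higher after GANP loss (10.7% and 5.68%, 16.4% in all), at an adjusted p below 0.05 and at least 1.3-fold up or to at most 0.7 of the untreated level (edgeR). Among them 765 genes were lower in both lines, out of the 1034 lower after NXF1 loss and the 1913 lower after GANP loss, and 231 were higher in both. Over 15202 genes averaging 50 counts or more, the effects had a Pearson r of 0.77 across genes, which are not independent replicates. Of the 765 genes, 594 fell further after GANP loss, and the median log2 change was -0.99 after GANP loss and -0.74 after NXF1 loss.

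The difference between the lines, tested as an interaction term, was called in 437 genes (2.45% of those tested). Its sign is that of the NXF1 effect minus the GANP effect. In 222 genes (1.25%) it was negative, so that RNA was lower, or less raised, after NXF1 loss. In 215 genes (1.21%) it was positive, so that RNA was lower, or less raised, after GANP loss. With the replicate number as a block within each line, 1237 genes were called, 567 negative and 670 positive. Without AID-FLAG-NXF1 untreated replicate 1 there were 256 and without replicate 2 there were 271, and without AID-FLAG-NXF1 auxin replicate 1 or 2 the negative ones numbered 145 or 140. With library sizes alone as the scaling the split was 128 negative and 297 positive, and in 1 fit over 24 libraries it was 185 and 353. The called genes fell into 4 classes by the line in which they had changed. There were 61 genes lowered more after NXF1 loss (0.342% of those tested), 207 lowered more after GANP loss (1.16%), 102 raised more after GANP loss (0.573%) and 2 raised more after NXF1 loss (0.0112%). Of these, 7 genes were in both the first and the third class, and another 72 were in no class. With the block the classes held 143, 580, 264 and 21 genes in the same order.

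**Figure D1:**
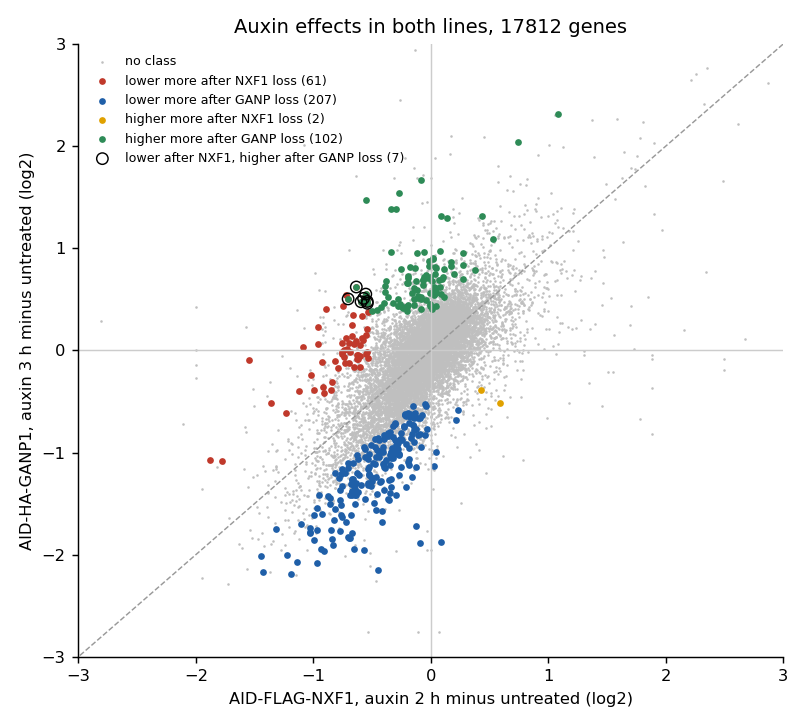
Log2 change after 2 h of auxin in AID-FLAG-NXF1 cells (horizontal) against that after 3 h in AID-HA-GANP1 cells (vertical), 1 point per gene, with the 4 classes in colour; 6 genes lie outside the axes. The 207 blue genes sit below the dashed line of equal change, 202 of them left of 0, and the 7 circled genes were lower after NXF1 loss and higher after GANP loss.

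The genes that fell further after GANP loss were short and had few exons. Their median span in the genome was 7482 bases, against 23195 bases over all genes tested. Of the 207, 181 were protein-coding, and 47 of these had a single exon (26.0%), against 2.19% of all protein-coding genes tested. The class was drawn from the 1913 genes lower after GANP loss. Of the 1451 protein-coding ones, 127 had a single exon, as did 51 of the 858 lower after NXF1 loss. Of genes spanning 6530 to 23195 bases, 15.8% were lower after GANP loss and 8.83% after NXF1 loss (10.7% and 5.81% of all genes). Of those spanning at most 6524 bases, 13.8% and 6.47% were lower. A lean to few exons and shorter spans was thus found after either loss. Seen from the other side, 234 protein-coding genes with 1 exon, histones left out, were tested, and the difference was called positive in 48 of them (20.5%) and negative in 0. With the block 93 were called positive. The share of genes with a positive difference was 5.44% with 2 to 3 exons, 0.757% with 4 to 8 exons and 0.414% with over 8 exons. The median log2 change of the 234 single-exon genes was -0.62 after GANP loss and -0.26 after NXF1 loss, against 0.05 and 0.01 over all genes. In AID-TPR cells after 2 h of auxin, which have controls of their own, it was -0.33, and in DLD-1 cells without a degron 0.00068.

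**Figure D2:**
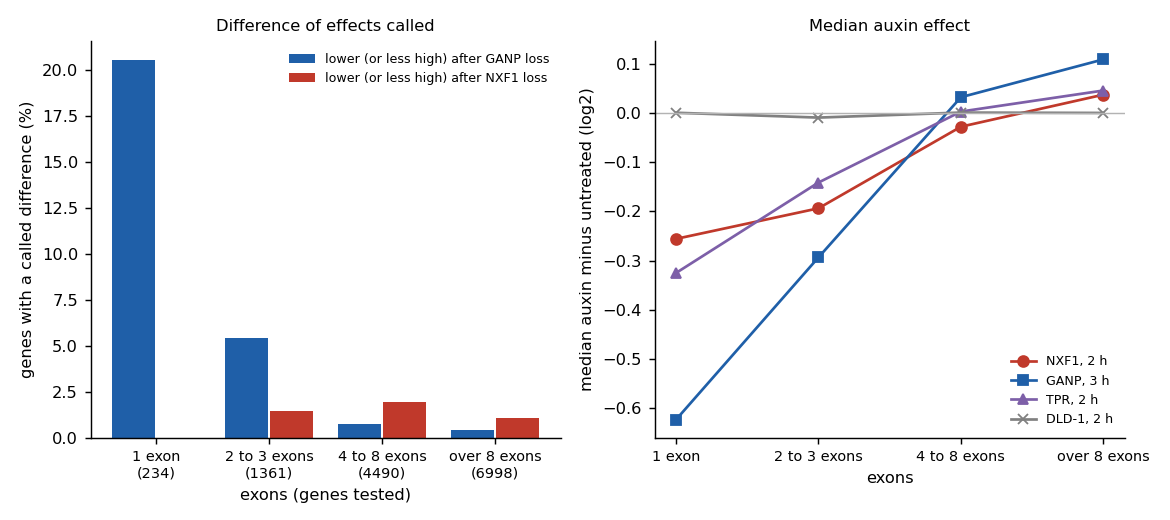
Left, share of protein-coding genes (histones left out) with a called difference of either sign, by number of exons; right, the median auxin effect (log2) of the same genes in each line. Bars of genes lower after GANP loss fall from 20.5% with 1 exon to 0.414% with over 8, and the medians of the NXF1, GANP and TPR lines rise with exon number while that of DLD-1 cells stays near 0.

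HPS6, a subunit of the lysosome biogenesis complex BLOC-2, is a gene of 1 exon (GRCh38, chr10:102065349-102068036, plus strand). It was at 28.4, 30.1 and 25.1 CPM in untreated AID-FLAG-NXF1 cells and at 19.0, 18.8 and 15.4 CPM in auxin. In AID-HA-GANP1 cells it was at 32.9, 33.2 and 35.0 CPM untreated and at 9.06, 7.84 and 9.27 CPM in auxin. The groups did not overlap within either line, which the rule for naming genes required of the AID-HA-GANP1 line. All libraries in auxin were below all untreated ones in 22.5% of all genes in that line and in 20.9% in the AID-FLAG-NXF1 line. The fall of HPS6 after GANP loss was the deeper by 1.295 on the log2 scale (SE 0.14, edgeR adjusted p = 0.000239). ZNF579, a zinc finger gene of 2 exons, fell from 10.0, 10.6 and 11.7 to 2.33, 2.84 and 3.18 CPM after GANP loss and from 6.71, 7.07 and 7.56 to 5.13, 4.66 and 4.61 CPM after NXF1 loss, a difference of 1.39 (SE 0.17, edgeR adjusted p = 0.000652). KBTBD6, a single-exon gene for a substrate adaptor of cullin 3, fell from 35.1, 31.2 and 28.9 to 10.5, 10.3 and 8.86 CPM after GANP loss, and in the AID-FLAG-NXF1 line it went from 17.8, 20.3 and 20.2 to 12.6, 14.1 and 17.01 CPM. Its difference was 1.26 (SE 0.16, edgeR adjusted p = 0.000696).

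Transcription factor genes of 1 exon were among the 207. FOXQ1, a forkhead factor and Wnt target in colon cancer cells, fell from 75.3, 112 and 94.6 CPM to 17.3, 28.2 and 21.1 CPM after GANP loss and from 37.4, 46.8 and 48.0 CPM to 19.6, 24.1 and 23.9 CPM after NXF1 loss (difference 1.12, SE 0.23, edgeR adjusted p = 0.0153). The untreated level was thus higher in the AID-HA-GANP1 line, and the levels in auxin overlapped between the lines. Of 56 HOX, FOX and SOX genes tested, 4 had a positive difference (1.21% of all genes tested) and 0 a negative one, FOXQ1, FOXC1, FOXD1 and HOXD11, and the median log2 difference was 0.14 against -0.03 over all genes. The calls of FOXC1 and FOXD1 were each lost in 9 of 12 fits with 1 library left out (highest edgeR adjusted p = 0.126 and 0.118). With the GANP effect scaled to 2 h, 0 of the 56 were positive by edgeR and 1 negative, and the median was 0.01. FJX1, a putative secreted signalling protein gene of 1 exon, was at -0.08 (SE 0.10) on the log2 scale after NXF1 loss and fell by 0.94 after GANP loss (SE 0.10), a difference of 0.86 (edgeR adjusted p = 0.00344). ASCL2, the master factor of intestinal stem cells, and HOXA13, a factor of the hindgut, were lower after GANP loss by 1.34 and 1.17 on the log2 scale, and after NXF1 loss the values were -0.40 and -0.74. Their differences of 0.94 and 0.43 missed the threshold (edgeR adjusted p = 0.0829 and 0.125), and with the replicate block they passed it (edgeR adjusted p = 1.668e-08 and 8.297e-05).

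Other genes named by size in this class were BORCS6 (a subunit of the lysosome-positioning complex BORC), CTU1 (a tRNA thiolase), CCDC121 and VWA1 (an extracellular matrix protein). Their differences were 1.14, 1.12, 1.16 and 1.79 on the log2 scale. The call of CCDC121 was lost in 4 of 12 fits with 1 library left out (highest edgeR adjusted p = 0.0656). VWA1 was at 12.87 to 13.98 CPM in untreated AID-FLAG-NXF1 cells and at 0.769 to 1.36 CPM in untreated AID-HA-GANP1 cells, so its change was measured from starting levels that differed by 3.56 on the log2 scale. In all, 11 of the 207 genes differed at least 2-fold between the untreated lines, against 7.75% of all genes tested. In 148 of the 207 the untreated level was higher in the AID-HA-GANP1 line, and in 67 of the 207 the lines were closer together in auxin than untreated. Exons of 95 of the 207 overlapped another expressed gene (48.3% of all genes tested), and among genes without such overlap 112 were in the class and 30 single-exon genes had a positive difference. Without AID-FLAG-NXF1 untreated replicate 1 or 2 the class held 98 or 117 genes, and without replicate 1 there were 30 single-exon genes in place of 48.

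In the AID-TPR line most of these genes were below 0 too. Of the 207, 204 had a negative log2 change in auxin, with a median log2 change of -0.42 against 0.01 over all genes. There 28 were called lower, out of 72 genes called lower in that line (0.404% of those tested, with 0.107% higher). In the 48 single-exon genes with a positive difference the TPR change was below 0 in all 48. Over all 234 single-exon genes it was below 0 in 197 and above 0 in 24, so the fall was not particular to the 48. The AID-TPR calls rest on all 6 libraries: 91 genes (0.511%) were called in all, and 21 or 33 without auxin replicate 1 or 3 and 24, 47 or 22 without untreated replicate 1, 2 or 3. In DLD-1 cells labelled as auxin-treated the median of the 207 was -0.0024, with 105 below 0 and 102 above.

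The number of calls in this class depended on how the hours in auxin were treated. If the GANP effect is scaled to 2 h, taken as proportional to time, 30 genes in place of 215 were called positive, 20 of them among the 207, and 14 of the 234 single-exon genes in place of 48. HPS6 (0.65), ZNF579 (0.73), KBTBD6 (0.70), CTU1 (0.68), VWA1 (1.16) and FJX1 (0.55) were called at this scale, and FOXQ1, BORCS6 and CCDC121 were not. The median of the 207 stayed above 0, at 0.30. This scaling counts hours in auxin, which are not hours without the protein. The study reports AID-NXF1 as degraded within an hour in auxin. For AID-tagged GANP it gives a time as long as the whole auxin treatment. The time without GANP may thus have been the shorter, and the scaling may correct in the wrong direction. The effect of equal times without each protein was not tested.

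The 61 genes that fell further after NXF1 loss were not short, with a median span of 23912 bases against 23195 over all genes tested. Only 1 of them had a single exon (1.64%, against 11.8% of all genes tested), and 38 had 4 to 8 exons, as did 5260 of the 17812 genes tested. Of their 56 protein-coding genes 0 had a single exon, against 2.19% of all protein-coding genes tested. By their prefix, 17 of the 61 were zinc finger genes (27.9%, against 2.52% of all genes tested). The class was drawn from the 1034 genes lower after NXF1 loss, which already held 162 zinc finger genes. The 1913 genes lower after GANP loss held 178. The median log2 change of the 61 was -0.70 after NXF1 loss and -0.01 after GANP loss. In AID-TPR cells it was -0.04, with 37 below 0 and 24 above. Scaling the GANP effect to 2 h left 60 of the 61 called, and without AID-FLAG-NXF1 auxin replicate 1 the class held 35 genes. CLCF1, a cytokine of the interleukin-6 family, was at 4.49, 6.15 and 5.53 CPM in untreated AID-FLAG-NXF1 cells and at 1.87, 1.49 and 2.13 CPM in auxin. In AID-HA-GANP1 cells it was at 5.00, 6.13 and 4.49 CPM untreated and at 4.52, 6.40 and 3.85 CPM in auxin. Only the NXF1 groups were apart, which the rule for naming genes required of that line (all below in 20.9% of all genes). The difference of CLCF1 was -1.46 on the log2 scale (SE 0.28, edgeR adjusted p = 0.0100). ERRFI1, a feedback inhibitor of the EGF receptor, fell from 203, 251 and 291 to 125, 150.3 and 168 CPM after NXF1 loss, and after GANP loss it went from 173, 209 and 164 to 204, 329.6 and 205 CPM (difference -1.18, SE 0.24, edgeR adjusted p = 0.0151). The polarity gene PARD6B and the zinc finger gene ZNF430 had differences of -1.26 and -1.303, each lost when single libraries were left out, at an adjusted p of at most 0.113 and 0.0582 (edgeR).

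Opposite changes were called in 7 genes, lower after NXF1 loss and higher after GANP loss, with a call in each line, and 0 genes did the reverse. The 6 described here were PHF13, a reader of histone H3 lysine 4 methylation, the zinc finger genes ZNF367, ZNF624 and KLF11, LIN52, a subunit of the DREAM cell cycle repressor, and the gene ENSG00000269374. PHF13 was at 15.0, 16.9 and 14.9 CPM in untreated AID-FLAG-NXF1 cells and at 9.24, 9.14 and 10.3 CPM in auxin, and in AID-HA-GANP1 cells it went from 23.5, 23.7 and 26.0 to 32.9, 37.5 and 33.5 CPM. The NXF1 change was -0.70 (SE 0.09), the GANP change 0.50 (SE 0.08) and the difference -1.21 (SE 0.12, edgeR adjusted p = 0.000195). In KLF11, a TGF-beta-induced repressor, the untreated levels were 11.6 to 15.5 CPM in the AID-FLAG-NXF1 line and 6.71 to 8.15 CPM in the AID-HA-GANP1 line, and in auxin both lines were within 8.24 to 10.9 CPM. All 7 kept a called difference with the GANP effect scaled to 2 h.

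**Figure D3:**
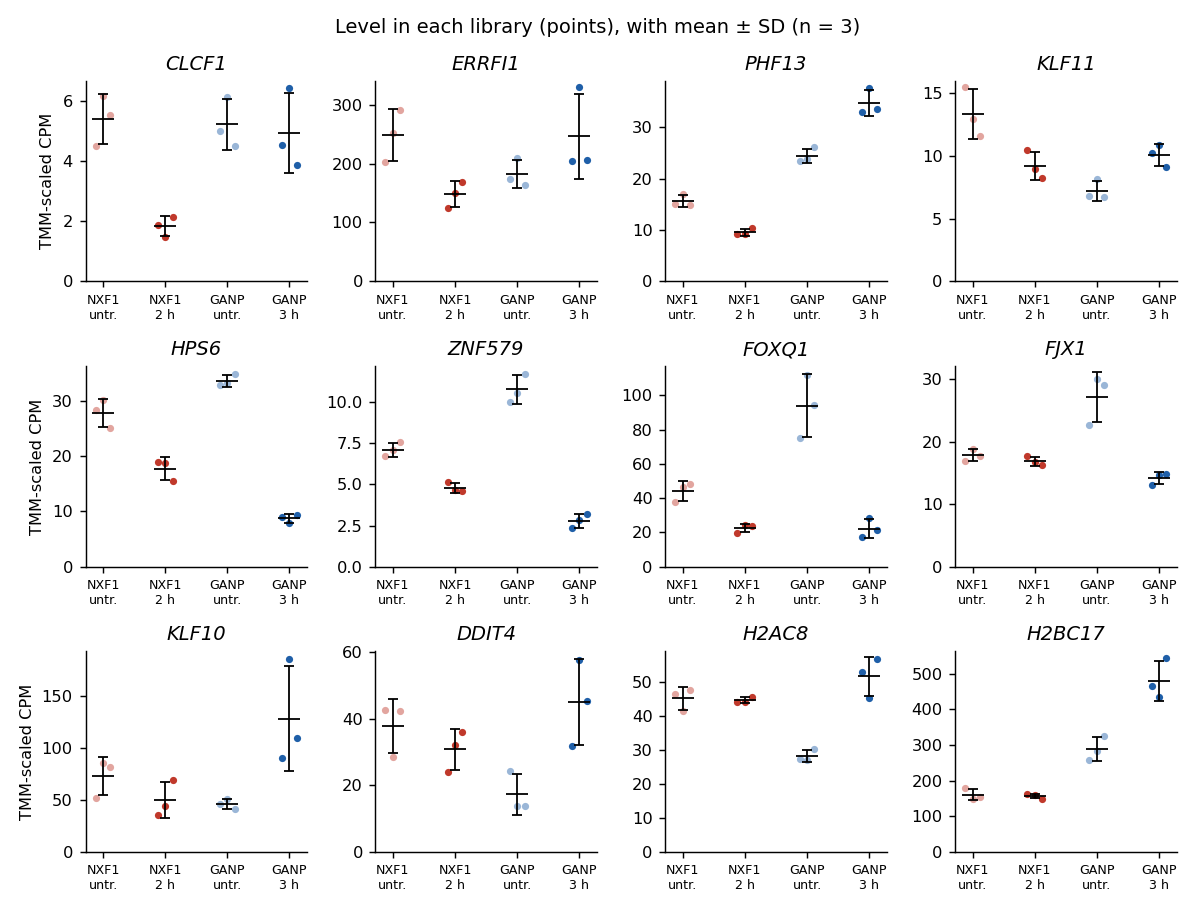
TMM-scaled CPM of 12 genes in each of the 12 libraries (points), with mean ± SD of 3 libraries per group (bars); red, AID-FLAG-NXF1, blue, AID-HA-GANP1, pale, untreated. HPS6 and ZNF579 fell in both lines and further in blue, CLCF1 fell in red alone, PHF13 moved in opposite directions, and the histone genes H2AC8 and H2BC17 rose in blue alone.

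Of 449 zinc finger genes tested, 162 were lower and 2 higher after NXF1 loss, against 5.81% and 2.05% of all genes. After GANP loss 178 were lower and 22 higher, against 10.7% and 5.68%, and 109 were lower in both lines. The median log2 change was -0.40 in each line. The difference was called negative in 29 (1.25% of all genes) and positive in 15 (1.21%). With the GANP effect scaled to 2 h the split was 42 negative and 1 positive (1.17% and 0.168% of all genes). Those with a negative difference included KLF10, ZNF430, ZNF624 and ZNF217, and those with a positive one ZNF579, ZNF488 and ZNF830. The median difference of the list was 0.02 and took either sign over the alternatives, from -0.10 to 0.10. Genes of this family resemble each other in sequence, and how reads that match several of them were counted is not given in the sources used here.

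The genes that rose after GANP loss and not, or less, after NXF1 loss included 26 replication-dependent histone genes among 102. These genes supply the histones of S phase. They have no introns, and their mRNAs end not in a poly(A) tail but in a stem-loop that SLBP binds. Of 54 tested, 39 were higher after GANP loss (72.2%) and 0 lower, against 5.68% and 10.7% of all genes. After NXF1 loss 0 were higher and 1 lower, H4C9, against 2.05% and 5.81% of all genes. The difference was called negative in 29 of the 54 (1.25% of all genes) and positive in 0 (1.21%). Values below 0 were found in 52, against 9979 of 17812 over all genes. The median log2 change was 0.51 after GANP loss, -0.01 after NXF1 loss and -0.08 after TPR loss. In 43 of the 54 all 3 libraries in auxin were above all 3 untreated ones in the AID-HA-GANP1 line (24.8% of all genes) and in 1 all were below (22.5%). In the AID-FLAG-NXF1 line 3 were above (17.6%) and 5 below (20.9%). Over 28 alternatives the median difference lay between -0.60 and -0.36. From this same RNA-sequencing the study already reports RNAs affected only after GANP loss, most of them encoding histones. It also examined individual ones by in situ hybridization and PCR. The histone list was taken up with that report known, so the values here are not separate support for it.

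The stem-loops are shown because they are what these genes share and what the rule did not use. Each run is the coding strand from GRCh38, 26 bases in the 3′ untranslated part of the single exon, with the 6 bases of each stem arm in capitals and the 4 bases of the loop between them in lower case. The first 4 genes had the largest called differences, and H4C2 and H4C9 were added after their values were seen, to show other cores.
H2AC25: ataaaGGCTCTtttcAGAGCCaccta
H2BC8: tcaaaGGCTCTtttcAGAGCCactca
H2AC4: gcaaaGGCTCTtttcAGAGCCaccta
H2AC8: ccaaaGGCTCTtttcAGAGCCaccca
H4C2: ccaatGGCCCTtttcAGGGCCgccca
H4C9: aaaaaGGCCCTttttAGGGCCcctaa

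They lie at chr1:228457364-228457389 (H2AC25, minus strand), chr6:26216213-26216238 (H2BC8, minus), chr6:26033093-26033118 (H2AC4, minus), chr6:26217412-26217437 (H2AC8, plus), chr6:26026896-26026921 (H4C2, minus) and chr6:27139649-27139674 (H4C9, plus). The histone stem-loop consensus, searched on the coding strand in the first 100 bases after the stop codon, was found in 54 of the 54 replication-dependent genes, both in the 29 with a called difference and in the 25 without. Of 13020 other protein-coding genes tested, 1 held it (0.00768%). That gene was H2AX, a replacement variant known to make both stem-loop and polyadenylated mRNA, and its difference was 0.22 (edgeR adjusted p = 0.676).

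H2AC8 was at 46.7, 41.5 and 47.9 CPM in untreated AID-FLAG-NXF1 cells and at 44.3, 44.3 and 45.8 CPM in auxin. In AID-HA-GANP1 cells it was at 27.4, 27.1 and 30.4 CPM untreated and at 53.1, 45.5 and 56.9 CPM in auxin. The GANP groups were apart and the NXF1 groups overlapped, and the difference was -0.89 on the log2 scale (SE 0.12, edgeR adjusted p = 0.000985). H2AC4 went from 94.4, 74.7 and 84.4 to 98.2, 83.8 and 85.9 CPM after NXF1 loss and from 117, 113 and 145 to 247, 202 and 289 CPM after GANP loss, a difference of -0.90 (SE 0.17, edgeR adjusted p = 0.0113). H2AC25 and H2BC8 had differences of -0.996 and -0.93 (edgeR adjusted p = 0.00718 and 0.00830). Linker histone H1-5 could not be compared: it was at 275 to 311 CPM in untreated AID-FLAG-NXF1 cells and at no more than 3 counts in any untreated AID-HA-GANP1 library. Histone genes are near copies of each other, so their values are not independent and reads may have been shared among them.

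**Figure D4:**
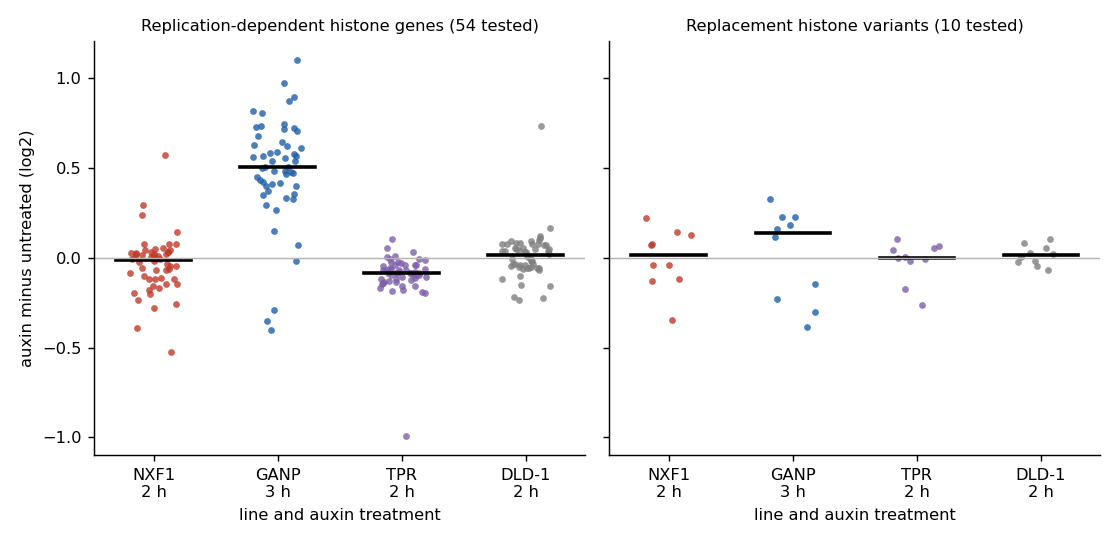
Log2 auxin effect of the 54 replication-dependent histone genes (left) and 10 replacement histone variants (right) in each line, 1 point per gene, with the median as a bar. The replication-dependent genes sit near 0.51 in the AID-HA-GANP1 line and near 0 in the others, and the replacement variants have medians of 0.02 to 0.14 in the first 2 columns.

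Related gene groups had few calls. Of 10 replacement variants tested 0 were called in either line or in the difference by edgeR, and 1 had an unadjusted p below 0.05 for the difference. Of 13 S phase genes, 0 were called in either line and 1 had a called difference, the cyclin gene CCNE2 (-0.38), which several scalings lost. The CCNE2 call was also lost in 9 of 12 fits with 1 library left out (highest edgeR adjusted p = 0.114). Of 14 factors of histone mRNA processing, 0 had a called difference and 5 an unadjusted p below 0.05. After NXF1 loss all libraries in auxin were below all untreated ones in 8 of the 14 (20.9% of all genes) and above in 4 (17.6%). After GANP loss they were below in 3 (22.5%) and above in 5 (24.8%). NPAT was at -0.40 on the log2 scale after NXF1 loss and -0.02 after GANP loss. Its difference of -0.38 was not called (edgeR adjusted p = 0.0779). With the GANP effect scaled to 2 h it was called at -0.39 (edgeR adjusted p = 0.0445). LSM11, a subunit of the U7 snRNP, was lower in both lines (log2 -1.13 and -1.53), MBLAC1, a histone pre-mRNA nuclease, was lower after GANP loss, and TUT7, a uridylyltransferase, was higher there. Without AID-FLAG-NXF1 untreated replicate 1, 15 histone genes had a called difference in place of 29, and without AID-FLAG-NXF1 auxin replicate 2, 19. With the GANP effect scaled to 2 h the number was 14, with the median at -0.36, and H2AC4 (-0.57) was not among them.

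Apart from the histones, 76 genes rose more after GANP loss, and several of those named by size are transcription factors. KLF10, a TGF-beta-induced factor, went from 45.7, 50.9 and 41.5 to 89.9, 186 and 109 CPM after GANP loss and from 52.3, 85.2 and 81.5 to 35.4, 44.3 and 68.9 CPM after NXF1 loss, a difference of -2.03 (SE 0.36, edgeR adjusted p = 0.00690). The NXF1 groups overlapped, and the second replicate in auxin stood high in the AID-HA-GANP1 line. OVOL1, an epithelial repressor, rose there from 15.7, 21.7 and 17.9 to 34.0, 86.0 and 56.0 CPM, with the same replicate the highest, and stayed at 17.5 to 23.8 CPM in all libraries of the AID-FLAG-NXF1 line (difference -1.75, SE 0.33, edgeR adjusted p = 0.0100). DDIT4, a stress-induced inhibitor of mTORC1, went from 24.4, 13.8 and 13.7 to 31.9, 57.8 and 45.5 CPM (difference -1.68, SE 0.33, edgeR adjusted p = 0.0122). BHLHE40 and NR1D1, repressors of the circadian clock, had differences of -1.31 and -1.23. Their calls were lost in 9 and 4 of 12 fits with 1 library left out (highest edgeR adjusted p = 0.124 and 0.0721).

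TIPARP, a target of the aryl hydrocarbon receptor, and PRDM1, a repressor of differentiation genes, rose in both lines and further after GANP loss, with log2 changes of 2.04 and 2.32 against 0.75 and 1.08. Their differences lost the call in 4 and 1 of 12 fits with 1 library left out (highest edgeR adjusted p = 0.0632 and 0.0532). With the GANP effect scaled to 2 h the differences of TIPARP (-0.61), PRDM1 (-0.46), BHLHE40 (-0.98) and NR1D1 (-0.79) were not called, those of KLF10, OVOL1 and DDIT4 were, and 57 of the 102 genes kept their call. In DLD-1 cells without a degron TIPARP was at -1.77 on the log2 scale, a call, in the libraries labelled as auxin-treated, and PRDM1 (-1.25), DDIT4 (-0.70), OVOL1 (-0.67) and KLF10 (0.02) were not called there. CYP1A1, the receptor's best known target, was higher after auxin in both tagged lines (2.61 and 2.22) and at -3.84 in the DLD-1 libraries labelled so, in which 10 genes were called, all lower (0.0561% of those tested). Of 6 aryl hydrocarbon receptor targets tested, TIPARP alone had a called difference, and CYP1A1 (0.40) and CYP1B1 (-0.34) did not. Since the sign in DLD-1 cells is opposite to that of both tagged lines, an exchange of the DLD-1 labels is possible, was not tested, and would turn the sign of every DLD-1 value given here. The part of auxin itself in these differences was not tested either. Excluding the genes called in DLD-1 cells left 436 of 437 differences. With only 10 genes called there, this step could remove few of them and does not measure the part of auxin.

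Actinomycin D, a transcription inhibitor, was given to AID-TPR cells for 2 h, and its effect is reported with no test since those libraries were counted in another way. The change was taken against untreated AID-TPR libraries labelled old, not against the AID-TPR controls used above. The values are TMM-scaled, so they are relative to the other genes and are not absolute losses. The median log2 change in actinomycin D was -0.997 for 91 of the 102 genes with enough counts, -0.68 for 56 of the 61 genes lowered more after NXF1 loss, -0.30 for 187 of the 207 lowered more after GANP loss and 0.00095 over 14568 genes. For 49 of the 54 histone genes it was -1.29, and without the histones the class raised more after GANP loss was at -0.73 (68 genes), near the -0.68 above.

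**Figure D5:**
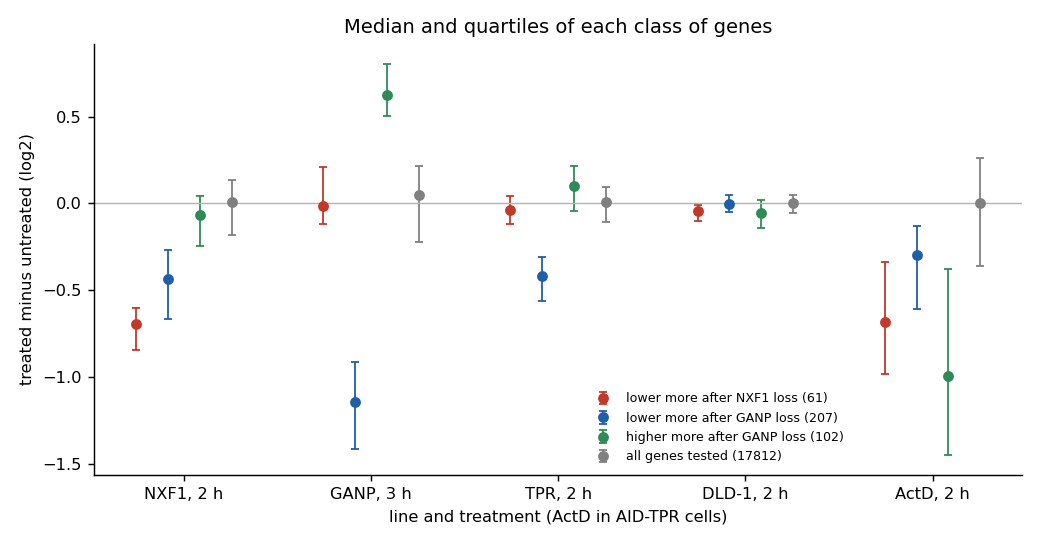
Median and quartiles of the log2 change of 3 classes of genes and of all genes tested, in the AID-FLAG-NXF1, AID-HA-GANP1, AID-TPR and DLD-1 lines in auxin and in AID-TPR cells in actinomycin D. The ActD column was taken against untreated AID-TPR libraries labelled old, which are not the controls of the TPR column. The NXF1 and GANP columns chose the classes; in the TPR column only the genes lowered more after GANP loss (blue) lie well below 0, and in the ActD column the genes raised more after GANP loss (green), histones included, are lowest, at -0.997 against -0.73 without the histones.

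Raised more after NXF1 loss were 2 genes, FAM43A and ARHGEF37, a guanine nucleotide exchange factor. FAM43A went from 5.58, 5.52 and 6.45 to 6.97, 7.91 and 11.5 CPM after NXF1 loss and from 5.45, 6.71 and 5.14 to 3.82, 4.38 and 3.96 CPM after GANP loss (difference 1.11, SE 0.24, edgeR adjusted p = 0.0189). In DLD-1 libraries labelled as auxin-treated it was at -0.85 on the log2 scale. ARHGEF37 had a difference of 0.81. Without AID-FLAG-NXF1 untreated replicate 1 or 2 neither was called.

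Genes of the export machinery had 1 called difference. Of 3 genes for the receptor and its partners, 6 for TREX-2 and 17 for THO, TREX and its adaptors, 0 had a called difference by edgeR, with 0, 1 and 3 at an unadjusted p below 0.05. NXT1 was lower in both lines (log2 -0.52 and -0.70), and the helicase gene DDX39A was higher in both. Of 13 genes for the pore side of export, NUP153 had a called difference of -0.42 (edgeR adjusted p = 0.0193), at 139 to 159.8 CPM after NXF1 loss against 163 to 176 CPM untreated, and at 203 to 209 CPM after GANP loss against 159 to 177 CPM untreated. With the GANP effect scaled to 2 h the NUP153 difference was -0.33 and not called, and 3 of 12 fits with 1 library left out lost the call (highest edgeR adjusted p = 0.068). TPR was higher after GANP loss (log2 0.38) and was not called after NXF1 loss (0.16), and the difference of -0.22 was not called.

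Some rapid-response genes rose in both lines. Of 14 immediate early genes, DUSP1, EGR1 and FOS were higher after NXF1 loss, and those and EGR2, IER3 and JUN after GANP loss (2.05% and 5.68% of all genes tested were higher), with 0 called differences by edgeR, 3 at an unadjusted p below 0.05 and a median difference of -0.50. FOS rose by 2.25 and 2.70 on the log2 scale and EGR1 by 1.37 and 2.26, and the replicate block called the differences of EGR1 (-0.97) and IER3 (-1.40). GDF15, a stress-induced cytokine, was higher after GANP loss (1.14) and at 0.23 after NXF1 loss, with a difference of -0.91 (edgeR adjusted p = 0.339) that the block called (-0.84). Of 12 genes of the integrated stress response, DDIT4 had a called difference, and 1 rose and 2 fell after NXF1 loss (2.05% and 5.81% of all genes) and 4 rose and 1 fell after GANP loss (5.68% and 10.7%). Of 11 p53 targets, 5 were lower and 0 higher after NXF1 loss and 4 lower and 1 higher after GANP loss, beside the same shares of all genes, with 0 called differences by edgeR and 1 with an unadjusted p below 0.05. BTG2, an antiproliferative factor, fell by 1.95 and 2.23 on the log2 scale. LINC00511, one of 8 nuclear lncRNAs tested, lay between 20.2 and 25.2 CPM in all AID-FLAG-NXF1 libraries and rose after GANP loss, from 23.6, 25.99 and 21.01 CPM to 36.3, 41.1 and 36.4 CPM (difference -0.75, edgeR adjusted p = 0.00558).

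The remaining lists held no called difference by edgeR. These were 81 cytosolic ribosomal protein genes, 77 nuclear oxidative phosphorylation genes, 16 mitotic genes, 15 cholesterol synthesis genes, 15 snoRNA host genes, 16 SR proteins and CLK kinases, 11 heat shock genes, 11 Wnt targets and 10 NF-kappaB targets. At an unadjusted p below 0.05 there were 0, 0, 3, 1, 1, 2, 1, 3 and 0 of them. The block called AXIN2 (-0.49), NFKBIA (-0.45), BIRC3 (0.51), BBC3 (-0.63), HSPA1A (1.15), CHTOP (-0.42) and LSM11 (0.40) among the genes with the largest or smallest difference of a list. HSPA1A has a near copy, HSPA1B, with which reads may be shared. The markers of other cell types held no called difference either.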

How the data were processed

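The deposited files held read counts per gene, which the authors made from rRNA-depleted, paired-end total RNA libraries aligned to GRCh38. The submitters' processing notes name CASAVA 1.8.2, STAR 2.6.1c and featureCounts 1.5.2. Strand and multi-mapping settings are not given in the sources used here. From 58051 genes, 17812 with over 1 CPM in at least 4 of 60 libraries were tested (41 had no count in the 12 libraries). edgeR 4.0.16 (R 4.3.3) fitted the 12 libraries in 4 groups with TMM scaling and a quasi-likelihood test; p-values were adjusted by Benjamini and Hochberg over all genes. A difference was called at an adjusted p below 0.05 and 1.3-fold either way. AID-TPR and DLD-1 were fitted apart, 6 libraries each. CPM are TMM-scaled, except for the nearly silent genes, whose CPM are counts over the library total. Alternatives were other scalings and filters, DESeq2 1.42.0, 1 fit over 24 libraries, the replicate block, a test against 1.3-fold, each library left out and, chosen after seeing the data, the GANP effect scaled to 2 h and genes left out for exon overlap or unequal untreated levels.

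Same-numbered libraries deviated together in each line (r of 0.184 to 0.486 in AID-FLAG-NXF1, 0.491 to 0.584 in AID-HA-GANP1). The replicate block takes the numbers to pair the samples, while the study describes its replicates as independent. The main fit held no replicate term and so ignored this pairing. Calls, missed thresholds and edgeR adjusted p-values given without naming the block or another alternative come from the main fit. Single genes were named by rule: a fixed list of export, early response and aryl hydrocarbon receptor genes, the 8 largest differences per class (mean of at least 50 counts, groups apart, no shared locus) and up to 4 per list. Members and lists were chosen with earlier results of these data known. Exons, spans and coordinates come from GENCODE 44 (56948 IDs matched), exons being those of the canonical transcript. KLF11, ENSG00000269374, HOXD11, ZNF217, ZNF488, ZNF830, H4C2, H4C9, H2BC17, H1-5, H2AX, MBLAC1, TUT7, DDX39A, DUSP1, EGR2, JUN and the nearly silent genes were named after their values were seen. Some results are not reported here.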

Additional observations from a re-analysis of the deposited data

Results flagged for a closer look

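The auxin effects of the lines differed in 437 genes by the interaction term. In 7 genes the lines had calls of opposite sign, and 6 of them had log2 differences of -1.21 (PHF13), -1.10 (ZNF367), -1.02 (KLF11), -1.25 (ZNF624), -1.07 (LIN52) and -1.08 (ENSG00000269374). The replication-dependent histone genes with a called difference numbered 29. Groups of 3 libraries are too small for a test of single outlying samples.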

How the results depend on the processing

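With the replicate block within each line, which the pairing of the numbers allows, the 437 called differences became 1237 (567 negative, 670 positive), the 4 classes became 143 (lowered more after NXF1 loss), 580 (lowered more after GANP loss), 21 (raised more after NXF1 loss) and 264 (raised more after GANP loss), and the single-exon genes 93. The DLD-1 calls became 48 and the AID-TPR calls 416 with that block. With a test against 1.3-fold (glmTreat) there were 36 differences (19 negative, 17 positive), with 7, 17, 0 and 16 genes in the classes, 1 histone gene and 10 single-exon genes. Asking for 2-fold left 59 (30 and 29), with 15, 28, 1 and 22 in the classes, 0 histone genes and 12 single-exon genes. Without a filter on low counts there were 745 (345 and 400), with 93, 372, 7 and 166 in the classes and 2313 untreated differences, against 903 with CPM and FPKM above 1. Library sizes alone gave 128 negative differences, 1 gene raised more after NXF1 loss and 55 raised more after GANP loss. DESeq2 gave 355 positive differences, 336 genes lowered more after GANP loss, 24 DLD-1 calls and 205 AID-TPR calls. One fit over 24 libraries gave 353 positive differences, 327 genes lowered more after GANP loss and 4 raised more after NXF1 loss. For each of these changes the cause was not tested.

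The remaining alternatives were chosen after seeing the data. Scaling the GANP effect to 2 h gave 239 differences (30 positive), with 112, 20, 7 and 57 in the classes, 14 histone genes and 14 single-exon genes. That scaling counts hours in auxin, not hours without the protein, and may correct in the wrong direction. Leaving out genes with overlapping exons, which tests fewer genes, gave 269 differences (117 positive), 112 genes lowered more after GANP loss and 30 single-exon genes. Leaving out genes that differed 2-fold untreated kept 417 of the 437.

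With 1 library left out the differences numbered 256 to 439, the negative ones 140 to 254, the positive ones 101 to 223, the untreated differences 1350 to 1427, the DLD-1 calls 7 to 19 (19 without DLD-1 untreated replicate 1) and the AID-TPR calls 21 to 62. The classes held 35 to 86, 98 to 214, 0 to 2 and 75 to 117 genes, and histone and single-exon calls were 15 to 32 and 30 to 49.

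Of 1194 values of named genes under alternatives, 1044 kept their direction and side of the threshold, 128 lost a call, 14 gained one and 8 changed sign. The changes of sign were in genes without a call: NXF1 (0.026 with library sizes alone, 0.010 with the scaled effect, and -0.15 to 0.0087 with 1 library left out, 0.0016 without AID-FLAG-NXF1 auxin replicate 1), PCID2 (-0.0037 to 0.073), FOS (0.45 with the scaled effect) and CYP1A1 (-0.48 to 1.0, and -0.048 without AID-FLAG-NXF1 untreated replicate 3).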

Other observations

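The untreated lines differed in 1381 genes by at least 2-fold (7.75% of those tested), and some genes were nearly silent in 1 line. With CPM taken as counts over the library total, without TMM scaling, below 0.1 CPM in every untreated AID-HA-GANP1 library and above 5 CPM in every untreated AID-FLAG-NXF1 library were 5 genes: H1-5, a linker histone, KIF26A, a kinesin-like protein, NPTX2, a pentraxin, ERICH5 and SDHAF3, an assembly factor of succinate dehydrogenase. H1-5 was also at 292 to 329 CPM in untreated AID-TPR cells and at 0.407 to 0.877 CPM in untreated DLD-1 cells, so the tagged lines lay on both sides of their parent. SDHAF3 had 0 counts in all untreated AID-HA-GANP1 and DLD-1 libraries and 132 to 163 counts in untreated AID-TPR libraries. NPTX2 was at 30.1 to 32.1 CPM in AID-FLAG-NXF1 cells and at 0 or 1 count in each untreated library of the other 3 lines. ZNF718 was the reverse, at 0 to 2 counts in untreated AID-FLAG-NXF1 libraries and at 10.4 to 11.6 CPM in AID-HA-GANP1 ones.

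Of the 437 genes with a called difference, 122 were closer between the lines in auxin than untreated, against 8755 of 17812 over all genes. For the called genes the median distance between the lines was 0.24 on the log2 scale untreated and 0.54 in auxin.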
